A study of Mus musculus with 12 samples.

Results

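The miR-30 family is a group of microRNAs (miRNAs), short RNAs that guide Argonaute proteins to messenger RNAs and lower their output. Its members mmu-miR-30a, mmu-miR-30b, mmu-miR-30c, mmu-miR-30d and mmu-miR-30e (written below without the mouse prefix) were taken by their probe names, 5 of the 355 mouse miRNA probes in the table. The samples were livers from C57Bl/6 mice, taken at embryonic day 15.5 (e15.5, mixed sex) and at 2, 3 and 7 weeks after birth (males), with 3 livers per age and 12 in all. In its title the study presents miR-122, the main miRNA of hepatocytes, as a regulator of postnatal polyploidization, and the ages span the fetal and the growing liver. No treatment or altered allele is given in the labels. Because only the fetal livers were of mixed sex, a difference from them cannot be told apart from one of sex, and it is not stated whether 1 embryo or several went into a fetal sample. The nanoString nCounter assay counts barcoded probes hybridised to each miRNA without amplification, and values are on a log2 scale unless a percent is given.

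Members of a miRNA family share the seed, the bases near the 5′ end that pair with target messenger RNAs, and so can act on overlapping sets of targets. In zebrafish, miR-30a is required for normal development of the bile ducts, and in mice miR-30c lowers lipoprotein production by the liver through Mttp, which loads lipid onto apolipoprotein B. In human cancer cells miR-30a represses Beclin 1, a starter of autophagy, and miR-30b and miR-30d repress the glycosyltransferase GALNT7. In mammals the family is encoded in a few small clusters, so that members made from 1 primary transcript can be compared with members made from others.

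In RefSeq gene order (assembly GRCm38.p6) the mouse genes formed 3 pairs with 0 annotated genes between the partners. They were Mir30a and Mir30c-2 on chromosome 1, Mir30b and Mir30d on chromosome 15, and Mir30e and Mir30c-1 on chromosome 4. The chromosome 4 pair lies within the span of Nfyc, which encodes a subunit of the transcription factor NF-Y, and no annotated gene spans the other pairs. The hairpins of the chromosome 1 pair are 19361 bases apart and those of the chromosome 4 pair 2983 bases. The mature sequences of miR-30a, miR-30c and miR-30e from the RefSeq miRNA table show how alike these members are, with the seed (bases 2 to 8) in capitals:
miR-30a (chr1:23272274-23272295, plus strand): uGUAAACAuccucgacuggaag
miR-30c (chr1:23291714-23291736, plus strand, and chr4:120769584-120769606, minus strand): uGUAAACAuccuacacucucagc
miR-30e (chr4:120772660-120772681, minus strand): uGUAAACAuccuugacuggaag

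The 3 sequences have 1 seed, GUAAACA, and share their first 12 bases. Counted from 1 at the 5′ end, miR-30e differs from miR-30a by the single substitution C13U, whereas miR-30c first differs from both at base 13 and is 1 base longer. Whether a probe also reads a near-identical member was not tested. Mature miR-30c comes from either of 2 hairpins, shown here with the mature arm in capitals because its probe adds up the chromosome 1 and the chromosome 4 source:
Mir30c-2 (chr1:23291701-23291784, plus strand): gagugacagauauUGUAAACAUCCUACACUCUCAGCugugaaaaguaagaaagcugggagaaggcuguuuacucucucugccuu
Mir30c-1 (chr4:120769534-120769622, minus strand): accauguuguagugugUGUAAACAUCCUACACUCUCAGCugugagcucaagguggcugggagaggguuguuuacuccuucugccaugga
The mature arm is the same in both, while the rest of the hairpins differs, so the partner of miR-30c at a given age cannot be read from its probe.

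The total linear signal of a liver lay between 148505 and 618776, and 114 of 355 probes were above the table's floor value in all 12 livers, among them all 5 members. Between e15.5 and 2 weeks the 100 brightest probes together were 1.75 higher on the log2 scale, and from 2 to 7 weeks 1.48 lower, so each change is also given after every liver was centred on the mean of these 100 probes ("after centring"). Hepatocyte marker miRNAs (6 of 6 listed were measured) made up 8.03 to 10.6% of the signal at e15.5 and 33.7 to 46.3% at the postnatal ages, and miR-101a and miR-802 were at the floor in every fetal liver. Erythroid markers (3 of 3) went from 7.21 to 10.5% at e15.5 to 1.01 to 2.30% after birth. From e15.5 to 2 weeks the deposited means of miR-144 and miR-486 fell from 12.91 to 10.86 and from 11.09 to 7.21. That of miR-451 rose from 12.22 to 12.90. Leukocyte markers (6 of 6) went from 4.0 to 4.85% at e15.5 to 0.381 to 0.538% after birth. In that list the brightest fetal probe, miR-142-3p, went from a mean of 12.38 to 10.20 at 2 weeks, whereas miR-150 went the other way, from a mean of 4.43 to 8.52 at 2 weeks, and miR-342-3p from the floor in each fetal liver to 6.41. The endothelial, stellate and mesenchymal, and biliary and epithelial lists were highest at 2 weeks, as was the family. Within them miR-214 (mean 5.60 at e15.5 and 4.54 at 2 weeks) and miR-200c (5.65 and 5.04) went down. Muscle markers (2 of 4 listed were measured) held at most 0.0217%, at e15.5, and were at the floor after birth. Of 4 pancreas markers 1 was measured, miR-216a, which held at most 0.0039% and was at the floor at 2 and 3 weeks. Endothelial markers (2 of 2) held 2.97 to 3.41% of the signal in fetal livers and, at the 3 postnatal ages in order, 7.20 to 8.21%, 5.25 to 5.80% and 4.31 to 4.70%. Stellate and mesenchymal markers (5 of 5) held 0.894 to 1.05%, 1.08 to 1.29%, 0.787 to 0.893% and 0.584 to 0.639% at the 4 ages, with miR-214 at the floor at 3 weeks. Biliary and epithelial markers (5 of 5, with miR-141 at the floor at e15.5, 2 and 7 weeks and miR-429 at 7 weeks) held 0.107 to 0.157%, 0.265 to 0.362%, 0.128 to 0.186% and 0.0515 to 0.0715%. The part of these cell types in the changes below was not tested, and in bulk liver RNA a change in the number of cells of a type and a change in RNA per cell cannot be told apart.

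All 5 members rose between e15.5 and 2 weeks and were still above their fetal level at 7 weeks. The values of mmu-miR-30a at e15.5 were 7.46, 7.30 and 7.28 in mice 1 to 3, and those at 2 weeks were 12.38, 11.97 and 11.78. At 3 weeks they were 11.33, 11.46 and 11.72, and at 7 weeks 10.06, 10.04 and 10.06. The fetal livers lay far below all others, and as deposited no age overlapped with another. After centring the 2-week and 3-week livers overlapped. At 2 weeks miR-30a was 26.0-fold above e15.5 (log2 change 4.70 ± 0.15, SE; limma, adjusted p = 1.5e-09), at 3 weeks 17.9-fold and at 7 weeks 6.54-fold (adjusted p = 4.0e-09 and 1.0e-07).

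The member with the brightest signal was mmu-miR-30c, with e15.5 values of 8.95, 8.84 and 8.74 and 2-week values of 13.19, 12.96 and 12.96. Its 3-week values were 12.49, 12.52 and 12.64 and its 7-week values 11.26, 11.10 and 11.30. As deposited no 2 ages overlapped for this member, and the order was 2 weeks, 3 weeks, 7 weeks and e15.5 from high to low. After centring its 3-week and 7-week livers overlapped. It rose 18.3-fold from e15.5 to 2 weeks (4.19 ± 0.09, limma adjusted p = 1.8e-10) and was 5.21-fold above e15.5 at 7 weeks (adjusted p = 5.0e-09).

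The chromosome 15 partners also rose. The values of mmu-miR-30b were 7.49, 8.37 and 8.01 in the fetal livers, 11.04, 11.46 and 11.12 at 2 weeks, 11.08, 10.64 and 11.14 at 3 weeks, and 9.86, 10.17 and 9.87 at 7 weeks. For mmu-miR-30d they were 6.13, 6.61 and 6.61 in the fetal livers, 10.50, 10.12 and 10.02 at 2 weeks, 9.997, 9.97 and 10.24 at 3 weeks, and 8.89, 8.94 and 9.04 at 7 weeks. In both members the 2-week and 3-week livers overlapped as deposited and the other ages stood apart. After centring the livers overlapped between all postnatal ages for miR-30b. For miR-30d they then overlapped between 7 weeks and each of 2 and 3 weeks, but not between 2 and 3 weeks. At 2 weeks miR-30b was 9.50-fold (3.25 ± 0.23, limma adjusted p = 5.8e-07) and miR-30d 13.6-fold (3.76 ± 0.17, adjusted p = 2.3e-08) above e15.5.

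The member with the dimmest signal was mmu-miR-30e, the host-gene member on chromosome 4, at 3.86, 5.90 and 6.00 at e15.5 and 8.97, 8.91 and 8.42 at 2 weeks. It read 8.42, 8.45 and 8.77 at 3 weeks and 7.57, 7.86 and 7.52 at 7 weeks. Mouse 1 of e15.5 lay about 2 log2 units below the other fetal livers for this member, and in that liver 143 probes were at the floor against 64 and 44 in the others. The rise at 2 weeks was 11.4-fold (3.52 ± 0.48, limma adjusted p = 0.00013), and the log2 change was 2.82 without that liver.

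Against e15.5 all 5 members were called higher at 2 weeks, 3 weeks and 7 weeks, where 28.2%, 25.6% and 18.6% of the 355 probes were called higher. The median log2 change of the members was 3.76, 3.62 and 2.40 at these ages, beside 1.96, 1.65 and 0.41 over the 114 probes measured in all livers. After centring all 5 were again higher at each age (background 19.2%, 18% and 17.5%), with median changes of 2.02, 2.23 and 2.13. On that scale the members lay between ranks 3 and 29 of the 114 probes by their change at 2 weeks, with miR-30a at the top, and between ranks 14 and 28 at 7 weeks.

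**Figure D1:**
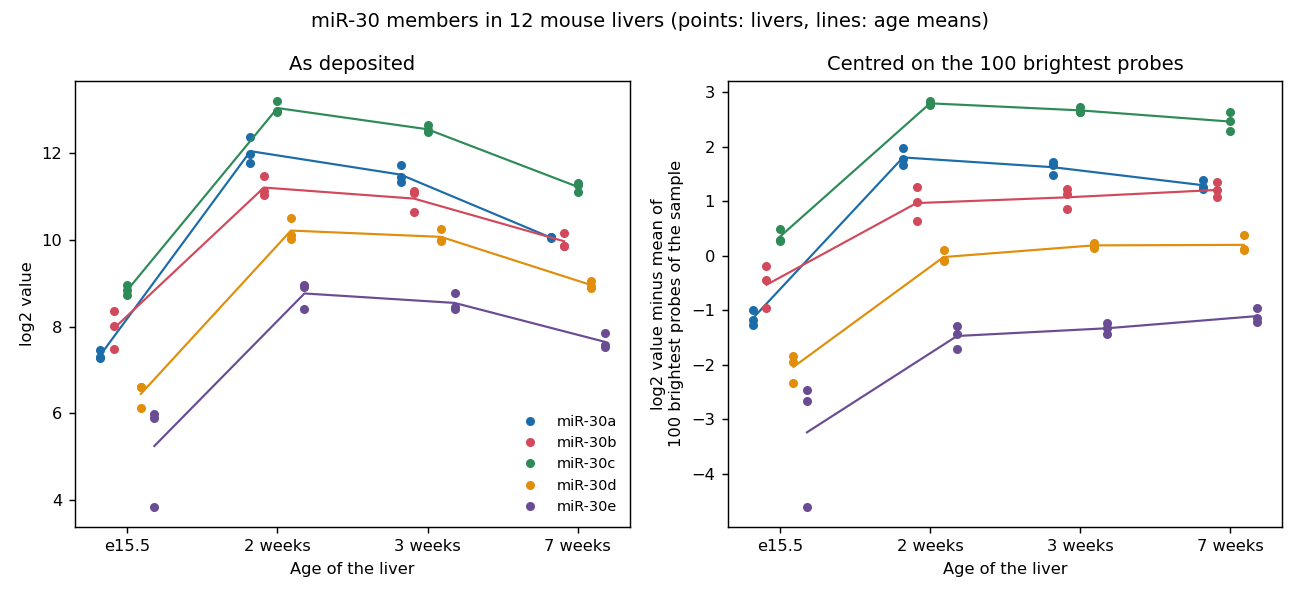
Values of the 5 miR-30 members (log2, vertical axis) in each liver by age, as deposited (left) and after centring on the 100 brightest probes of each liver (right); points are livers and lines join age means. Every member rose from e15.5 to 2 weeks on both scales, while the postnatal fall on the left, such as 12.04 to 10.05 for the mean of miR-30a, was smaller or absent on the right.

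After 2 weeks the direction of change depended on the scale for some members. From 2 to 3 weeks miR-30c fell by 0.49 ± 0.09 (limma adjusted p = 0.0037) and miR-30a fell by 0.54 ± 0.15 (adjusted p = 0.036), where 15.5% of probes were called lower. The call of miR-30a was lost on omitting any 1 of 9 livers (adjusted p = 0.053 to 0.15) and was kept on omitting e15.5 mouse 1, 2-week mouse 3 or 3-week mouse 3. After centring the changes of miR-30a and miR-30c were -0.18 and -0.13 (limma adjusted p = 0.44 and 0.56), and 0 of 5 members were called lower or higher (background 10.1% and 2.54%). Nor did any member have an unadjusted p below 0.05 on that scale. For miR-30b, miR-30d and miR-30e the changes from 2 to 3 weeks were -0.25, -0.15 and -0.22 as deposited, with adjusted p of 0.67, 0.84 and 1.

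Between 3 and 7 weeks 4 of 5 members were called lower as deposited (background 29.6% lower). Those were miR-30a (-1.45 ± 0.15), miR-30c (-1.33 ± 0.09), miR-30d (-1.11 ± 0.17) and miR-30b (-0.98 ± 0.23), with limma adjusted p between 1.4e-06 and 0.0059. For miR-30e the change was -0.90 ± 0.48 (limma adjusted p = 0.17), and its 3-week and 7-week livers did not overlap. The limma adjusted p was 0.0031 without e15.5 mouse 1 and 0.0068 with only these 2 ages in the model. After centring 0 of 5 were called lower or higher (background 10.1% and 17.7%) and 1, miR-30a, had an unadjusted p below 0.05 (-0.33, adjusted p = 0.0503). The centred changes of the others lay between -0.21 and 0.22.

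Over the whole span from 2 to 7 weeks, miR-30a and miR-30c fell as deposited and after centring on the 100 brightest probes. As deposited their log2 changes were -1.99 ± 0.15 and -1.81 ± 0.09, and after centring -0.51 ± 0.11 and -0.33 ± 0.09 (limma adjusted p = 0.0056 and 0.023). These were 2 of 5 members called lower after centring and 0 of 5 called higher, with a background of 16.3% and 13.8%. Centred on the median of the 114 measured probes instead, miR-30c was not called (-0.32, adjusted p = 0.12). As deposited miR-30b and miR-30d also fell (-1.24 ± 0.23 and -1.26 ± 0.17; 4 of 5 members, background 36.1%), but after centring their changes were 0.24 and 0.22 (adjusted p = 0.41 and 0.26). For miR-30e the deposited scale gave -1.11 (adjusted p = 0.10; leaving out e15.5 mouse 1, 0.00076) and the centred scale 0.37 (adjusted p = 0.57). The fall of miR-30e was also called with only these 2 ages in the model (limma adjusted p = 0.0092). The same held with only the 114 measured probes (0.025) and with 10 added to every linear value (0.028). It was not called on omitting any other single liver. On the centred scale 2 of 5 members, miR-30a and miR-30c, passed the F test over the postnatal ages (limma adjusted p = 0.011 and 0.041), below the background of 61.7% of the 355 probes. The adjusted p of miR-30b, miR-30d and miR-30e in that test were 0.47, 0.11 and 0.091. As deposited the members' limma adjusted p in the same F test ran from 9.6e-06 (miR-30c) to 0.0043 (miR-30e). The share of all probes passing it on that scale was not counted.

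The sum of the 5 members' linear signals was 0.630 ± 0.075% (SD, n = 3) of the total in fetal livers, 3.15 ± 0.20% at 2 weeks, 2.46 ± 0.06% at 3 weeks and 2.07 ± 0.11% at 7 weeks. Single livers lay between 0.544 and 0.675%, 3.03 and 3.37%, 2.42 and 2.53%, and 1.96 and 2.16% at these ages, so the ages did not overlap. The share of this sum taken by each member describes signal and not molecules, because probes can differ in how well they capture their miRNA. At every age miR-30c held the largest share, from 45.7 ± 6.3% at e15.5 to 50.4 ± 2.1% at 2 weeks and 46.4 ± 3.0% at 7 weeks. The share of miR-30a was 16.2 ± 2.4% in fetal livers, 25.4 ± 2.7% at 2 weeks, 23.6 ± 1.6% at 3 weeks and 20.6 ± 0.26% at 7 weeks. That of miR-30b ran the other way, with 24.999 ± 5.4%, 14.4 ± 3.0%, 16.1 ± 2.3% and 19.5 ± 2.6%. The shares of miR-30d lay between 7.14 ± 0.53% at 2 weeks and 9.64 ± 0.39% at 7 weeks, and those of miR-30e between 2.62 ± 0.34% and 4.44 ± 2.6%.

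**Figure D2:**
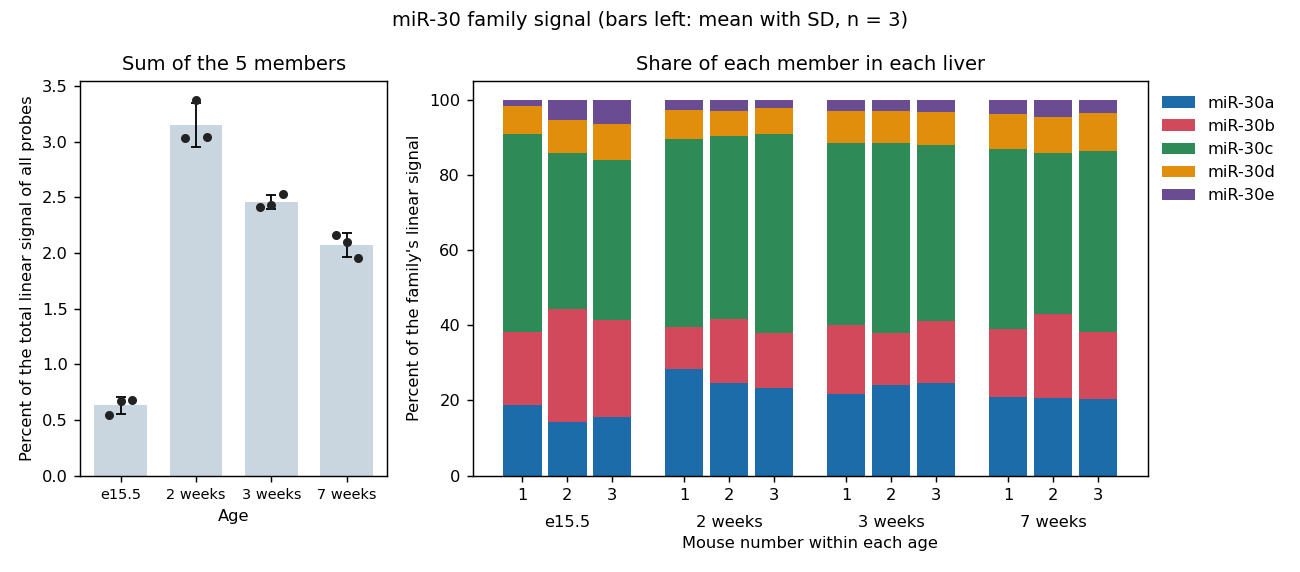
Left, the summed linear signal of the 5 members as a percent of the total linear signal of all probes by age (bars, means; error bars, SD, n = 3; points, livers), highest at 2 weeks (3.15%). Right, the percent of the family's signal held by each member in every liver; in the mean, the share of miR-30a was lowest and that of miR-30b highest at e15.5.

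The clusters were compared through the difference of 2 members within each liver, which does not depend on how a liver was scaled. Each of the 10 pairs was tested with an exact permutation test of the F statistic, over 4 ages and over the 3 postnatal ages, with Benjamini-Hochberg adjustment over the 10 pairs. Only changes of a difference between ages are read, not its level. Over the postnatal ages 4 of 10 pairs changed, namely miR-30a with miR-30d or miR-30e and miR-30c with miR-30d or miR-30e. The other 6 pairs did not pass the test, including the chromosome 1 and the chromosome 15 partners. Among all 6441 pairs of the 114 measured probes, 61.7% had an exact p below 0.05 over these ages, against 4 of 10 member pairs by the same unadjusted rule. With p adjusted over all 6441 pairs, the same 4 member pairs were called over the postnatal ages (adjusted p = 0.017 to 0.031).

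The difference of miR-30a from miR-30d was 1.88, 1.85 and 1.76 at 2 weeks, 1.34, 1.49 and 1.48 at 3 weeks, and 1.17, 1.10 and 1.02 at 7 weeks. The 3 ages did not overlap, and miR-30a fell relative to miR-30d by 0.73 ± 0.06 (SE) from 2 to 7 weeks (exact p = 0.0036, the smallest 9 livers in 3 ages can give; adjusted p = 0.012). Relative to miR-30e, miR-30a stood at 3.41, 3.06 and 3.36 at 2 weeks, 2.92, 3.00 and 2.95 at 3 weeks, and 2.49, 2.18 and 2.53 at 7 weeks. Here too the ages did not overlap, with a change of -0.88 ± 0.13 (exact adjusted p = 0.012).

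For miR-30c against miR-30d the differences were 2.69, 2.84 and 2.94 at 2 weeks, 2.49, 2.56 and 2.39 at 3 weeks, and 2.37, 2.16 and 2.26 at 7 weeks. The ages did not overlap, and the change from 2 to 7 weeks was -0.56 ± 0.09 (exact adjusted p = 0.012). The change of miR-30c against miR-30e was -0.70 ± 0.19 (exact adjusted p = 0.027). Its call was lost without 2-week mouse 1 or 3, any 3-week liver or 7-week mouse 2 (adjusted p = 0.054 to 0.12), whereas the calls of the other 3 pairs were kept without any 1 liver.

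Of the 3 pairs of partners from 1 cluster, only that on chromosome 4 passed the postnatal test. The chromosome 1 difference, miR-30a against miR-30c, changed by -0.18 ± 0.11 from 2 to 7 weeks (exact adjusted p = 0.46), and the chromosome 15 difference, miR-30b against miR-30d, by 0.02 ± 0.24 (adjusted p = 0.84). On chromosome 4 the difference between miR-30c and miR-30e narrowed, as given above, and the probe of miR-30c also reads the chromosome 1 source. Some pairs from different clusters were not called either: miR-30d against miR-30e changed by -0.14 ± 0.15 and miR-30b against miR-30e by -0.12 ± 0.19 (exact adjusted p = 0.54 and 0.84). With 3 livers per age, a pair without a call is not shown to have kept its difference. For miR-30b against miR-30a and miR-30c the 2-week to 7-week changes were as large as those of called pairs. They were -0.75 ± 0.26 for miR-30a minus miR-30b and 0.58 ± 0.24 for miR-30b minus miR-30c, but with the wider spread of miR-30b they were not called (exact adjusted p = 0.125 for each).

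Over all 4 ages 3 of 10 pairs were called, and each involved miR-30a. Relative to miR-30d it stood at 0.89 ± 0.38 (SD, n = 3) at e15.5 and 1.83 ± 0.06 at 2 weeks (exact adjusted p = 0.019 over 4 ages). Relative to miR-30b it stood at -0.61 ± 0.53 and 0.84 ± 0.44 (exact adjusted p = 0.020), and this call did not hold when e15.5 mouse 2 (0.053) or 2-week mouse 1 (0.062) was omitted. Relative to its chromosome 1 partner miR-30c it stood at -1.50 ± 0.04 and -0.99 ± 0.18 (exact adjusted p = 0.020, and 0.056 without e15.5 mouse 2). By the unadjusted rule 4 of 10 member pairs and 88.2% of the 6441 probe pairs changed, and with p adjusted over all of them miR-30b against miR-30c was called as well (adjusted p = 0.042). Of the 10 pairs, 8 were called without e15.5 mouse 1, the exceptions being miR-30b against miR-30d and miR-30b against miR-30e. The e15.5 levels of miR-30d and miR-30e were low (14.5 to 97.9 linear units), and with 100 added to every linear value 8 pairs were called and miR-30a against miR-30c was not.

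**Figure D3:**
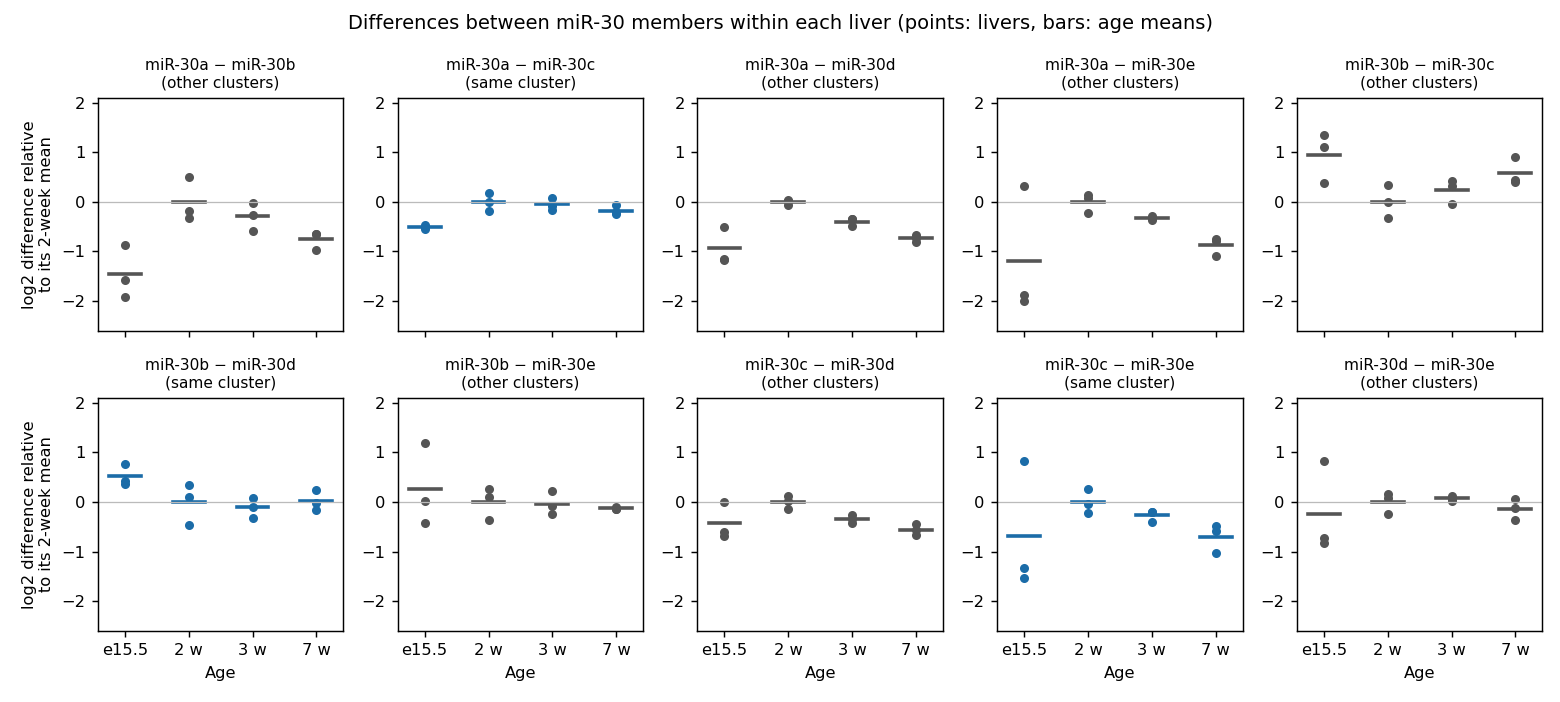
Difference of log2 values between 2 members in each liver, drawn relative to its own 2-week mean, for all 10 pairs by age (points, livers; bars, age means); partners of 1 genomic cluster are blue and other pairs grey. From 2 to 7 weeks the differences of miR-30a from miR-30d and miR-30e fell, as did those of miR-30c from miR-30d and miR-30e, while miR-30a minus miR-30c and miR-30b minus miR-30d changed by -0.18 and 0.02.

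As a summary of likeness, the root mean square difference of 2 profiles over the 12 livers was taken after each probe's own mean had been removed. Among members it was lowest for miR-30a with miR-30c (0.22), followed by miR-30c with miR-30d (0.27) and miR-30b with miR-30d (0.33), and highest for miR-30a with miR-30e (0.72). The median was 0.41 over the 10 member pairs and 1.13 over all 6441 pairs of measured probes. Over the 9 postnatal livers alone the order changed: miR-30a with miR-30c remained lowest (0.13), miR-30d with miR-30e (0.17) and miR-30b with miR-30e (0.20) came next, and the median was 0.28 against 0.55 for all pairs. Without e15.5 mouse 1 the value of miR-30b with miR-30e went from 0.41 to 0.21.

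Outside the family, the profile most like that of miR-30a over the 12 livers was that of miR-23b (0.21), followed by the hepatocyte miRNA miR-194 (0.33) and miR-10a (0.37). For miR-30c these were miR-26b (0.21), miR-23b (0.25) and miR-10a (0.27). The profile of miR-30d was closest to miR-10a (0.15), miR-194 (0.16) and miR-26b (0.25). That of miR-30b was closest to let-7a (0.24), miR-101b (0.27) and miR-26b (0.29), and that of miR-30e to miR-101b (0.34), the leukocyte marker miR-150 (0.44) and miR-24 (0.47). The nearest probe outside the family was thus a different one for miR-30a, miR-30b, miR-30c, miR-30d and miR-30e. For each of them that probe was nearer than any other member. The margin was small for miR-30a and miR-30c (0.208 and 0.215, against 0.219 between these members). For miR-30b and miR-30d all the probes named here were nearer than any other member.

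Against miR-122, whose mean was 13.64 at e15.5, 17.34 at 2 weeks and 16.24 at 7 weeks, 2 of 5 members changed over 4 ages. By the same unadjusted exact rule 86.7% of the 113 measured probes other than miR-122, the members among them, changed relative to it. The difference of miR-30a from miR-122 was -6.53, -6.21 and -6.14 in fetal livers, -5.35, -5.08 and -5.44 at 2 weeks, -6.06, -6.04 and -5.91 at 3 weeks, and -6.07, -6.20 and -6.28 at 7 weeks. The 2-week livers were above all others, by 1.001 over e15.5 and by 0.71 over 3 weeks in the mean. The differences changed over 4 ages for miR-30a and miR-30c (exact permutation test, adjusted over the 5 members, p = 0.0091 and 0.012), where miR-30c stood 0.50 higher at 2 weeks than at e15.5 and 0.66 higher than at 3 weeks. The rise to 2 weeks depended on the reference: against miR-148a, another hepatocyte miRNA, it was 0.22 for miR-30a and -0.28, in the other direction, for miR-30c. Against miR-148a 4 of 5 members changed over 4 ages (exact adjusted p = 0.0055 to 0.030; background 92.9%), the exception being miR-30e. With miR-122 as the reference, miR-30b, miR-30d and miR-30e did not pass the test over 4 ages (exact adjusted p = 0.41, 0.78 and 0.83), but without e15.5 mouse 1 all 5 were called.

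Over the postnatal ages miR-30a, miR-30c and miR-30d changed relative to miR-122 (exact adjusted p = 0.0089, 0.030 and 0.0089). These 3 of 5 members stand beside 67.3% of the 113 probes with an exact p below 0.05, and with p adjusted over the 113 probes they were 0.018, 0.045 and 0.018. From 2 to 7 weeks the changes were -0.89, -0.72 and -0.16, the 3-week mean of miR-30d being lower than both (-7.12, -7.44 and -7.28 at 2, 3 and 7 weeks). The call of miR-30c was lost without 7-week mouse 2 (0.065) or 3 (0.054). With miR-148a in place of miR-122, 0 of 5 members were called over the postnatal ages by the exact test adjusted over the 5 members. The unadjusted p was below 0.05 for 2 of them, miR-30a and miR-30c (background 66.4%; adjusted p = 0.0625 for each over the members and 0.047 over the 113 probes), and their 2-week to 7-week changes were -0.88 and -0.71.

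**Figure D4:**
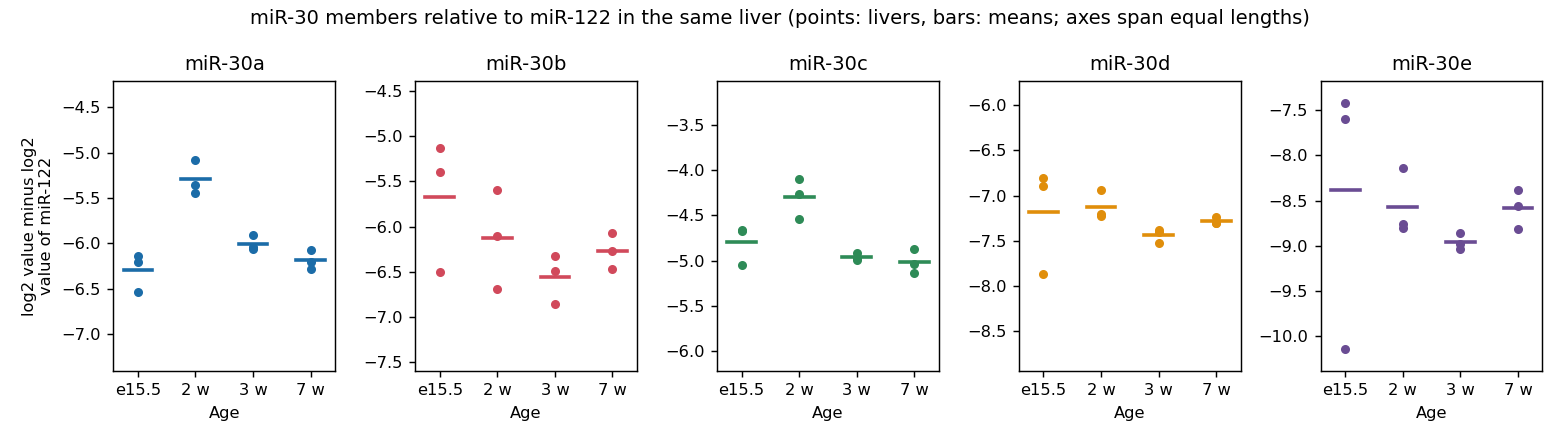
Log2 value of each member minus that of miR-122 in the same liver, by age (points, livers; bars, age means); the vertical axes start at different values and span equal lengths. For miR-30a the 2-week livers, between -5.44 and -5.08, lay above the livers of all other ages.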

How the data were processed

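The deposited table holds log2 values of 355 mouse probes in 12 livers. Partek 6.6 is the only tool in the submitters' processing notes; background subtraction and scaling are not given in the sources used here, so depth in counts is unknown and no counting interval was computed. The lowest value of each liver, log2(0.001) or -9.97, was read as at or below background; no member was at it. The labels give ages and mouse numbers; p-values measure the spread between these samples.

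The deposited scale was kept for the main tests. A model with limma 3.58.1 (R 4.3.3; 1 mean per age, eBayes with trend) was fitted to all probes, with Benjamini-Hochberg adjustment over 355 probes per pair of ages and a threshold of 0.05. Differences within a liver were tested by exact permutation (Python 3.11.15). Pairs of ages number 6. Sequences are from RefSeq (GRCm38.p6), where 3 of 5 members matched. The steps were tested on simulated data. Alternatives were other scalings, filters, pseudocounts and variance models, a block for mouse number, and leaving out single livers; the likeness over postnatal livers and without e15.5 mouse 1 was added after seeing the data. Probes named beside the members were miR-122, miR-148a, cell type markers and, per member, the 3 most alike profiles among probes measured in all livers. Members, lists and tests were chosen with earlier results of these data known.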

Additional observations from a re-analysis of the deposited data

How the results depend on the processing

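The 15 changes of the members against e15.5 kept their direction and call in all 345 values from 23 alternatives (largest adjusted p = 0.046). The postnatal calls depended on scaling. The members called lower from 2 to 3 weeks, 2 as deposited, numbered 0 after each centring (100 brightest probes, these without the miR-30 members, and the median of measured probes), after quantile normalisation and without a variance trend, 1 with only the ages compared, and 1 to 2 without 1 liver. From 3 to 7 weeks the 4 falls became 0 after each centring and 1 after quantile normalisation. There miR-30b turned to 0.14, 0.13 and 0.083 after the centrings and 0.38 after quantile normalisation, and miR-30d to 0.0095 and 0.00027 after the first and second. From 2 to 7 weeks the 4 falls became 2, 2 and 1 after the centrings (the last without miR-30c) and 2 after quantile normalisation, as miR-30b turned to 0.24, 0.25, 0.25 and 0.48 and miR-30d to 0.22, 0.23, 0.24 and 0.19; the cause was not tested. Over 4 ages the pairs called, 3 in all livers, were 8 with log2(linear + 100) and 1 to 8 without 1 liver. The members called relative to miR-122, 2 over 4 ages and 3 over postnatal ages, were 4 and 0 with miR-148a, and 2 to 5 over 4 ages without 1 liver. With the mouse number as a replicate block 1 member (miR-30c) was called lower from 2 to 3 weeks, and no other member call changed. Correlations of same-numbered livers across ages lay between -0.41 and 0.52 (median 0.033). Those of differently numbered livers lay between -0.55 and 0.45 (median 0.013). Of 12 livers, 3 correlated best with their own number, so no pairing by mouse number was seen. At e15.5 the log2 SD was 1.21 for miR-30e and 0.44 for miR-30b, against 0.10 to 0.28 for the other members. Adjusting over all measured probes or pairs, chosen after seeing the data, left the counts of pairs and of members called relative to miR-122 within 1.5 times. The members called relative to miR-148a over the postnatal ages went from 0 to 2.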
